A study of Mus musculus with 2 samples.

Results

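NOD-like receptors (NLRs), caspases and the proteins that carry out lytic cell death were followed in sorted splenic cells, labelled as macrophages, of *Listeria*-infected mice with and without Ch25h, the enzyme that converts cholesterol to 25-hydroxycholesterol. Members were taken by gene symbol: every gene whose symbol starts with Nlrp, Nlrc, Nlrx, Naip or Gsdm, every numbered caspase, and Nod1, Nod2, Aim2, Pycard, Mefv, Ripk1, Ripk2, Ripk3, Mlkl and Ninj1. This gave 55 of the 30538 genes in the count table. Of these, 32 were measured, meaning that they averaged at least 1 CPM (counts scaled to the size of the library), against 11972 measured genes in all. A further 21 members had 0 counts in both libraries and 2 had counts under 1 CPM.

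RNA was sequenced in 2 libraries, 1 for the wild-type strain C57BL/6 and 1 for Ch25h-/- mice, which lack Ch25h. Both groups were infected: mice of each genotype received 100000 *Listeria monocytogenes* intravenously, and at day 3 about 100000 CD11b+, Ly6G-, Ly6C-low splenic cells were sorted, which the labels call resident macrophages. Uninfected mice were not analysed here, and the labels do not state how many mice went into a library, nor their age or sex. Each genotype has 1 library, which leaves no replicate check and allows no p-value. Differences between mice, sorts and library preparations cannot be told apart from the genotype.

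NLRs and their partners are cytosolic sensors that detect bacterial molecules or cell damage. Some of them, with AIM2 and pyrin, assemble inflammasomes, in which the adaptor ASC (encoded by Pycard) recruits caspase-1, which matures IL-1β and IL-18 and cleaves gasdermin D into a membrane pore. NOD1 and NOD2 instead signal through the kinase RIPK2 to NF-κB, while apoptotic caspases and the RIPK3 and MLKL pair drive separate forms of death. *Listeria* escapes into the macrophage cytosol, where its DNA, peptidoglycan fragments and flagellin can meet these sensors.

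Sequencing gave 16957371 gene counts in the C57BL/6 sample and 15986392 in the Ch25h-/- sample. Ratios are Ch25h-/- over C57BL/6 on the log2 scale, after scaling by trimmed mean of M-values (TMM), each with an exact 95% interval that covers counting error only. Ch25h itself had 3 counts in the C57BL/6 library and 0 in the Ch25h-/- library, both at or under the floor of 3 counts, so it gives no check of the labels and no fold. All 8 markers of the sorted gate and macrophages were measured, with a summed level of 1437 CPM in C57BL/6 and 1601 CPM in Ch25h-/-. Itgam (706 and 877 CPM) and Lyz2 (223 and 337 CPM) carried the higher sum, while 6 of the 8 had ratios below 0, with a median of -0.25, among them Adgre1 (-0.76) and Csf1r (-0.44). Markers of other cells were measured too, and some summed to more than the macrophage list. The 13 conventional dendritic cell markers summed to 2199 and 827 CPM, with 9 of the 10 measured more than 2-fold lower in Ch25h-/-. Among those 9 were Flt3 (134 and 43.5 CPM) and Zbtb46 (75.9 and 35.8 CPM), while Itgax was higher (272 and 336 CPM). Xcr1, Clec9a and Cd209a were under 1 CPM in both libraries. The 12 red pulp and marginal zone macrophage markers summed to 362 and 215 CPM, with Cd209b at 0 counts, and the 10 B and plasma cell markers to 1372 and 836 CPM. The 12 NK and cytotoxic lymphocyte markers summed to 13335 CPM in C57BL/6 and 21460 CPM in Ch25h-/-, led by Gzmb at 4356 and 7429 CPM. The 13 neutrophil markers summed to 1341 and 2251 CPM, with 11 ratios above 0 and 2 below. The 7 Ly6C-high monocyte markers summed to 2043 and 2960 CPM, with 6 ratios above 0 and 1 below. The 10 Ly6C-low monocyte markers summed to 2674 and 3141 CPM, led by Itgal, but 7 of them had ratios below 0, with a median of -0.29. The 9 T cell markers summed to 428 and 457 CPM and the 5 eosinophil markers to 26.8 and 9.34 CPM. In bulk RNA, fewer cells of a type and less RNA per cell cannot be told apart, and the part of these markers in the differences given here was not tested.

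Transcripts of the sensors NOD2, NLRP3 and NLRC4 were lower in the Ch25h-/- library, while those of ASC and NLRC3 were higher. A gene was called when its ratio passed a given fold and its whole interval lay on 1 side of 0. At 2-fold, no member was called higher, where 2.07% of all measured genes were, and 2 of 32 (6.25%) were called lower, where 5.77% of all measured genes were. At 1.5-fold, 3 members (9.38%) were called higher against a background of 7.35%, and 6 members (18.8%) were called lower against a background of 11.2%. The 2-fold shares and the share higher at 1.5-fold lay near the background, and the share lower at 1.5-fold lay above it, a difference for which no test was made. With the whole interval required beyond 1.5-fold, 2 of 32 members (6.25%) and 6.24% of all measured genes were lower, so the share then equalled the background. Nlrp10 was measured only through its level in C57BL/6, and with at least 1 CPM asked of each library 5 of 31 members (16.1%) were lower, against 10.1% of all such genes. The 6 lower members were Nod2, Nlrp10, Nlrc4, Nlrp3, Ninj1 and Nlrp1b, and the higher ones included Nlrc3 and Pycard.

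The median log2 ratio of the 32 measured members was -0.08, with 13 above 0 and 19 below, and the median over all measured genes was 0.01. Size of difference was the same as elsewhere in the table, with a median absolute log2 ratio of 0.25 for the members and 0.25 for all measured genes. The 15 measured NLR genes had a median of -0.32, with 12 below 0, of which 9 had the whole interval below 0. Nlrp10 is among these 9 and was measured only through its level in C57BL/6, which pulls the median down. The 8 measured caspases had a median of 0.17, with 6 above 0, of which 5 had the whole interval above 0. Of the 11972 measured genes, 5769 were below 0 (3294 with the whole interval) and 6203 above (3706 with the whole interval). Together the members took 0.299% of the counts in each library (50735 counts in C57BL/6 and 47733 in Ch25h-/-). Nlrc5, nearly equal in both, gave 14031 and 12566 of these counts, so the like share says little about the other members.

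**Figure D1:**
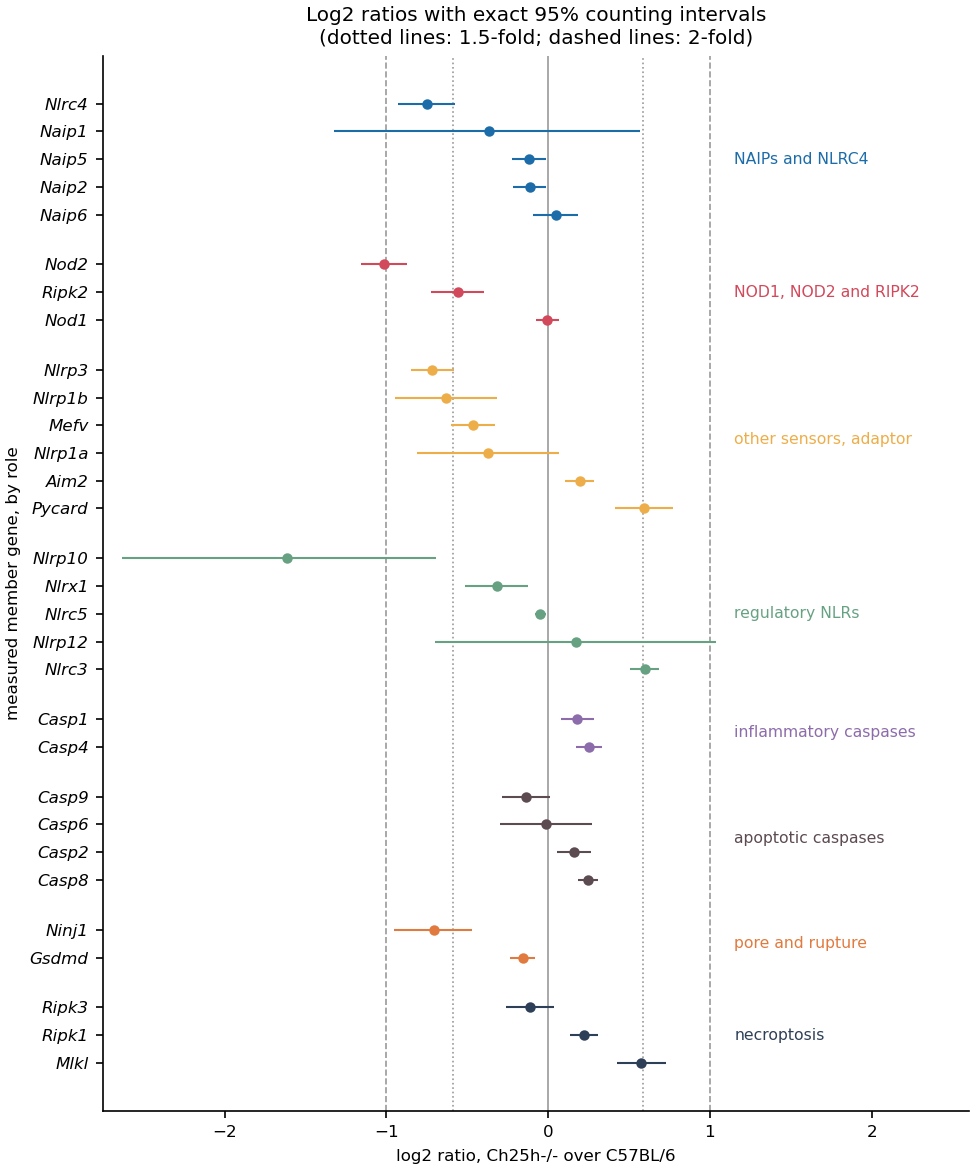
Log2 ratios of measured members, Ch25h-/- over C57BL/6 (x axis), with genes ordered by role (y axis), where points are ratios and bars are exact 95% counting intervals. Nlrp10 at -1.61 has the widest interval, Nod2 lies at -1.01 on the dashed line of 2-fold, and Nlrc3 lies at 0.60, just past the dotted line of 1.5-fold.

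Levels of different genes were compared per length, as CPM per kb of exon. Nlrc5, the transactivator of MHC class I genes, was the highest member in both libraries, at 96.5 CPM per kb in C57BL/6 and 93.4 in Ch25h-/-. Casp8 followed at 78.1 and 92.6 CPM per kb, and the lowest member in the C57BL/6 library was Nlrp12 at 0.186 CPM per kb, the lowest in the Ch25h-/- library being Nlrp10 at 0.182. The median measured member stood at 14.8 and 12.5 CPM per kb, above the median of 7.44 and 7.46 for the 11936 measured genes with a length. Of all members, the largest change in rank was 9 places, for Nlrc3, which stood at rank 19 in C57BL/6 (14.3 CPM per kb) and rank 10 in Ch25h-/- (21.6 CPM per kb). Nod2 moved the other way, from rank 17 at 14.8 CPM per kb to rank 24 at 7.33 CPM per kb.

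**Figure D2:**
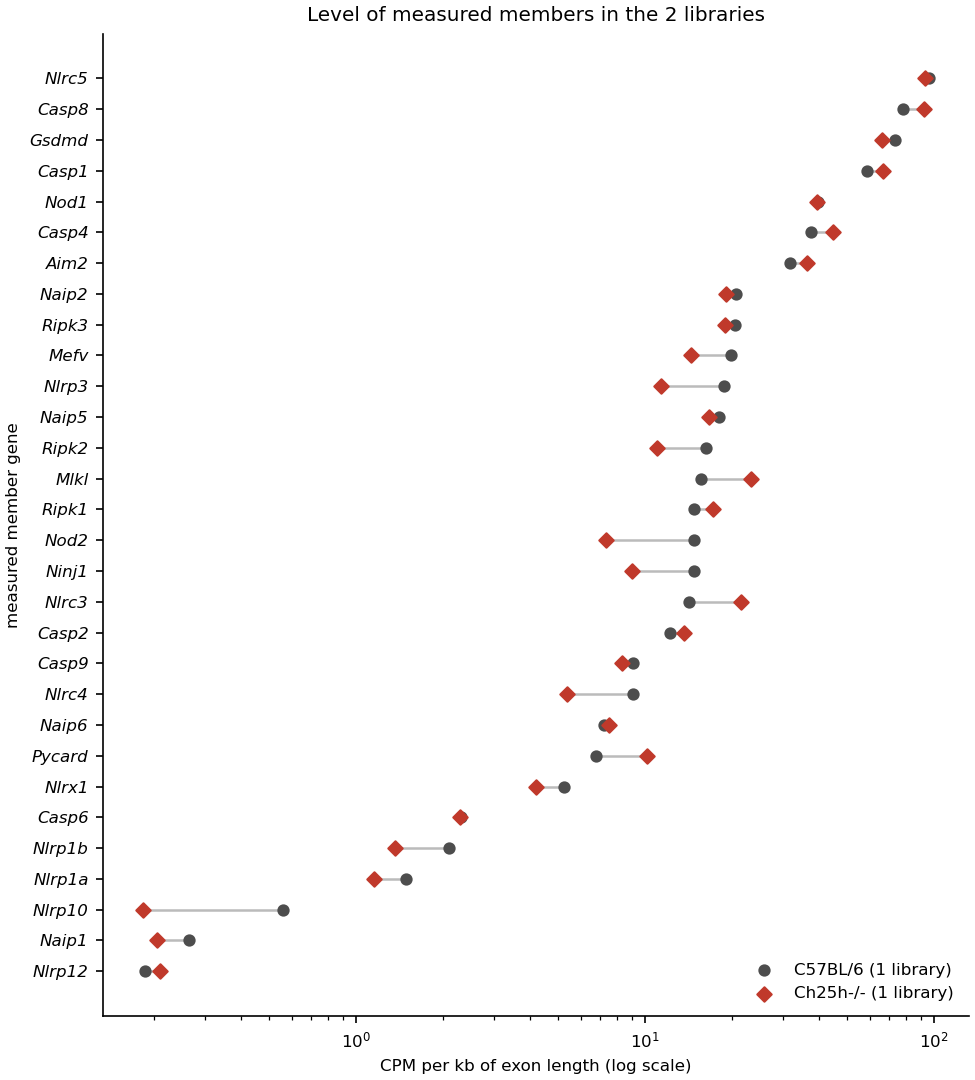
Levels of measured members (y axis) in CPM per kb of exon length (x axis, log scale), where circles are the C57BL/6 library and diamonds the Ch25h-/- library. Nlrc5, Casp8, Gsdmd and Casp1 are the 4 highest in both libraries, and Nlrp1b, Nlrp1a, Nlrp10, Naip1 and Nlrp12 are the 5 lowest.

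NAIP proteins bind flagellin or parts of bacterial secretion systems and then activate NLRC4, which recruits caspase-1. The mouse Naip genes lie next to each other on chromosome 13 and share much of their sequence, which bears on how well reads can be assigned to each of them. In a 60-base coding stretch (GENCODE M21 transcripts, GRCm38, minus strand), Naip6 at chr13:100316210-100316269 (exon 2) had the same letters as Naip5 at chr13:100245858-100245917 (exon 1). Naip1 at chr13:100444396-100444455 (exon 2) differed from Naip5 at 2 bases and Naip2 at chr13:100189057-100189116 (exon 3) at 6 bases, the differing bases being in capitals:
Naip5: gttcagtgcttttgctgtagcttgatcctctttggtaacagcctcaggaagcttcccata
Naip6: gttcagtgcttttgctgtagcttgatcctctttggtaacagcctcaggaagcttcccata
Naip1: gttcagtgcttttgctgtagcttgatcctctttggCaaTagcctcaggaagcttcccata
Naip2: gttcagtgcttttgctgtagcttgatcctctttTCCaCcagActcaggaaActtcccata

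Over whole transcripts, 36.9% of the 50-base runs of Naip5, 31.5% of those of Naip1, 21.5% of those of Naip6 and 19.1% of those of Naip2 also occurred in another annotated gene. How reads that match several genes were counted is not given in the sources used here, so the split between the 4 Naip genes is uncertain. Naip2 had 1711 counts in C57BL/6 (20.6 CPM per kb) and 1463 in Ch25h-/- (19.1 CPM per kb), a log2 ratio of -0.11 (interval -0.22 to -0.01). Naip5, a flagellin receptor, had 1606 and 1370 counts (93.9 and 86.5 CPM) and a log2 ratio of -0.12. Naip6, the other flagellin receptor, had 846 and 809 counts (49.4 and 51.1 CPM), with an interval of -0.09 to 0.19. Naip1 was near the limit of measurement in both libraries, with 25 and 18 counts. Naip2, Naip5 and Naip6 therefore differed little between the libraries, while the interval of Naip1, from -1.32 to 0.57, was too wide to tell.

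Nlrc4 (chr17:74425438-74459142, minus strand) is the NLR that NAIPs activate, and only 1.09% of its 50-base runs occurred in another gene. It had 745 counts in C57BL/6 (43.5 CPM) and 410 in Ch25h-/- (25.9 CPM). It was 1.68-fold lower in Ch25h-/-, with a log2 ratio of -0.75 (interval -0.93 to -0.57). Nlrc4 was thus lower relative to Naip2 and Naip5, a comparison that needs no scaling between libraries. It does rest on the split of reads between the Naip genes, which is uncertain, and it was not made for Naip6 and Naip1. Nlrc4 counts were 0.435 of those of Naip2 in C57BL/6 and 0.280 in Ch25h-/-, a log2 change of -0.64 (interval -0.84 to -0.43). They were 0.464 of those of Naip5 in C57BL/6 and 0.299 in Ch25h-/-, a log2 change of -0.63 (interval -0.84 to -0.43).

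NOD1 binds diaminopimelic acid peptides from bacterial peptidoglycan and NOD2 binds muramyl dipeptide. Nod1 was nearly equal in both libraries, with 3446 and 3180 counts (201 and 201 CPM) and a log2 ratio of 0.00 (interval -0.07 to 0.07). Nod2 (chr8:88647315-88688474, plus strand) had 1269 counts in C57BL/6 (74.2 CPM) and 582 in Ch25h-/- (36.7 CPM). It was 2.02-fold lower, with a log2 ratio of -1.01 (interval -1.16 to -0.87), so the 2-fold line lay inside its interval. The transcript of the receptor for muramyl dipeptide was therefore lower while that of the related receptor stood at nearly the same level. Nod2 counts were 0.368 of Nod1 counts in C57BL/6 and 0.183 in Ch25h-/-, a log2 change of -1.01 (interval -1.17 to -0.85). Ripk2, the kinase that both receptors signal through, had 783 and 492 counts (45.8 and 31.1 CPM). Its log2 ratio was -0.56 (interval -0.72 to -0.39), just under 1.5-fold, and it passed that fold at -0.59 when libraries were scaled by their total counts.

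Of 18 measured genes of the NOD1 and NOD2 pathway around these receptors, 3 (16.7%, against 11.2% of all measured genes) were called lower at 1.5-fold and none higher, with a median of -0.08. The list was mixed, with 5 genes whose intervals lay above 0 and 9 below. Tnfaip3, the ubiquitin-editing enzyme A20 that limits NF-κB signalling and the most abundant of the list, was at 1503 CPM in C57BL/6 and 761 CPM in Ch25h-/-, a log2 ratio of -0.98. Slc15a3, an endolysosomal peptide transporter, was at 142 and 73.2 CPM (-0.96). Card9, an adaptor that acts with NOD2, was at 37.2 and 21.8 CPM (-0.77). Xiap, the ubiquitin ligase that acts on RIPK2, went the other way at 152 and 211 CPM (0.48), short of 1.5-fold.

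NLRP3 is activated by potassium loss and membrane damage and is itself induced by NF-κB. Nlrp3 (chr11:59541568-59566956, plus strand) had 1299 counts in C57BL/6 (75.9 CPM) and 732 in Ch25h-/- (46.2 CPM). It was 1.64-fold lower, with a log2 ratio of -0.72 (interval -0.85 to -0.58). Mefv, which encodes the inflammasome sensor pyrin, had 1106 and 741 counts (64.6 and 46.8 CPM) and a log2 ratio of -0.47 (interval -0.60 to -0.33). Transcripts of both sensors were lower, that of Mefv by less than 1.5-fold. The NLRP1 paralogs are guarded by the peptidases DPP8 and DPP9, and their transcripts were rare. Nlrp1b (chr11:71153102-71230733, minus strand) had 227 and 136 counts (13.3 and 8.58 CPM; log2 ratio -0.63, interval -0.95 to -0.31). Nlrp1a had 106 and 76 counts, with an interval of -0.81 to 0.07, and the ratio of Nlrp1b to Nlrp1a was not distinguishable between libraries at this depth (log2 change -0.26, interval -0.81 to 0.29).

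AIM2 detects double-stranded DNA in the cytosol. Aim2 had 1909 counts in C57BL/6 (112 CPM) and 2024 in Ch25h-/- (128 CPM), a log2 ratio of 0.20 (interval 0.10 to 0.29). Pycard (chr7:127989708-127993867, minus strand), which encodes the ASC adaptor, had 439 and 613 counts (25.7 and 38.7 CPM). Transcripts of the adaptor and the DNA sensor were therefore on the higher side, opposite to Nlrp3. The log2 ratio of Pycard was 0.59 (interval 0.41 to 0.77), a 1.51-fold difference that was 0.57 and under 1.5-fold with scaling by total counts. Exons of the opposite-strand gene Gm45205 overlap 12.8% of the exon length of Pycard, and the strand setting of the counting is not given in the sources used here. Nlrp3 counts were 2.96 of Pycard counts in C57BL/6 and 1.19 in Ch25h-/-, a log2 change of -1.31 (interval -1.53 to -1.09). Against Aim2, Nlrp3 went from 0.680 to 0.362.

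Caspase-1 is the protease of canonical inflammasomes, and Casp4, the gene of mouse caspase-11, encodes the sensor of cytosolic lipopolysaccharide. Casp1 had 1507 counts in C57BL/6 (88.1 CPM) and 1581 in Ch25h-/- (99.8 CPM), a log2 ratio of 0.18 (interval 0.08 to 0.28). Casp4 had 2394 and 2636 counts (140 and 166 CPM), a log2 ratio of 0.25 (interval 0.17 to 0.33). Both were slightly higher, well under 1.5-fold, and their ratio to each other changed by 0.07 on the log2 scale (interval -0.06 to 0.20). Casp12, a further member of this group, had 15 and 11 counts and was under 1 CPM.

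The promoters of the members were searched for letters that fit NF-κB and interferon response elements, on both strands, because several of these genes are known NF-κB or interferon targets. RefSeq promoters (GRCm38.p6, 250 bases before to 50 after the start) were found for 26 of the 32 measured members. GGGANTTCC occurred in those of Casp4 and Nlrx1 only (7.69% of these genes, against 1.92% of 27025 genes and 1.68% of 32851 promoters). Below are the 120 bases before the start of Casp4 (chr9:5308729-5308848, plus strand) and of Nlrx1 (chr9:44268600-44268719, minus strand), 5′ to 3′, with the match or its reverse complement in capitals:
Casp4: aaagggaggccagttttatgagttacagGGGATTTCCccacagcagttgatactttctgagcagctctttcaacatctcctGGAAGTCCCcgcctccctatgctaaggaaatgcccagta
Nlrx1: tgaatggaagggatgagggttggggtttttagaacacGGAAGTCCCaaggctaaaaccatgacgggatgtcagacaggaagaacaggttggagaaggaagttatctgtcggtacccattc

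Casp4 held 2 matches and Nlrx1 held 1, and the log2 ratios of these genes, 0.25 and -0.32, went in opposite directions. GAAANNGAA, the core of the interferon response element, occurred in the promoters of Naip2, Ripk1 and Ripk3 (11.5% of the member genes with an entry, against 9.76% of all genes and 8.56% of all promoters). None of these 5 genes was called at 1.5-fold, where 7.35% of all measured genes were called higher and 11.2% lower. With 5 genes and such shares, no call is no result about the letters. Neither set was found in the other members with a promoter entry. Only exact letters within 300 bases were searched, and a link between these letters and the ratios was not tested.

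The 13 measured genes that license or trigger inflammasomes had a median of 0.04, and 1 (7.69%, against 11.2% of all measured genes) was called lower at 1.5-fold and none higher. That gene was Txnip, a thioredoxin-binding protein that can bind NLRP3, at 470 CPM in C57BL/6 and 308 CPM in Ch25h-/- (-0.61). Brcc3, a deubiquitinase of NLRP3, was at 27.8 and 37.5 CPM (0.43), and Nek7, a kinase that binds NLRP3, at 60.8 and 71.5 CPM (0.23). The most abundant, listed as Gbp5, a guanylate-binding protein, was at 605 and 543 CPM (-0.16), but its identifier carries the name Gbp2b in GENCODE M21, so its identity is less sure.

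Of the 6 genes for inflammasome products and their antagonists, 3 were called lower at 2-fold, where 5.77% of all measured genes were, and the other 3 were not called at 1.5-fold. The median was -0.87. Il1b, which encodes the cytokine that caspase-1 matures, was at 427 CPM in C57BL/6 and 162 CPM in Ch25h-/-, a log2 ratio of -1.40. Il1rn, which encodes the receptor antagonist, was at 373 and 144 CPM (-1.38), and Il1a at 33.7 and 13.4 CPM (-1.33). The transcripts of the cytokine and of its antagonist were thus lower to a like extent. Il18 was rare, with 124 and 90 counts and an interval of -0.76 to 0.05. The 3 called ratios were larger in size than that of any member other than Nlrp10, as the plot of gene lists shows.

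**Figure D3:**
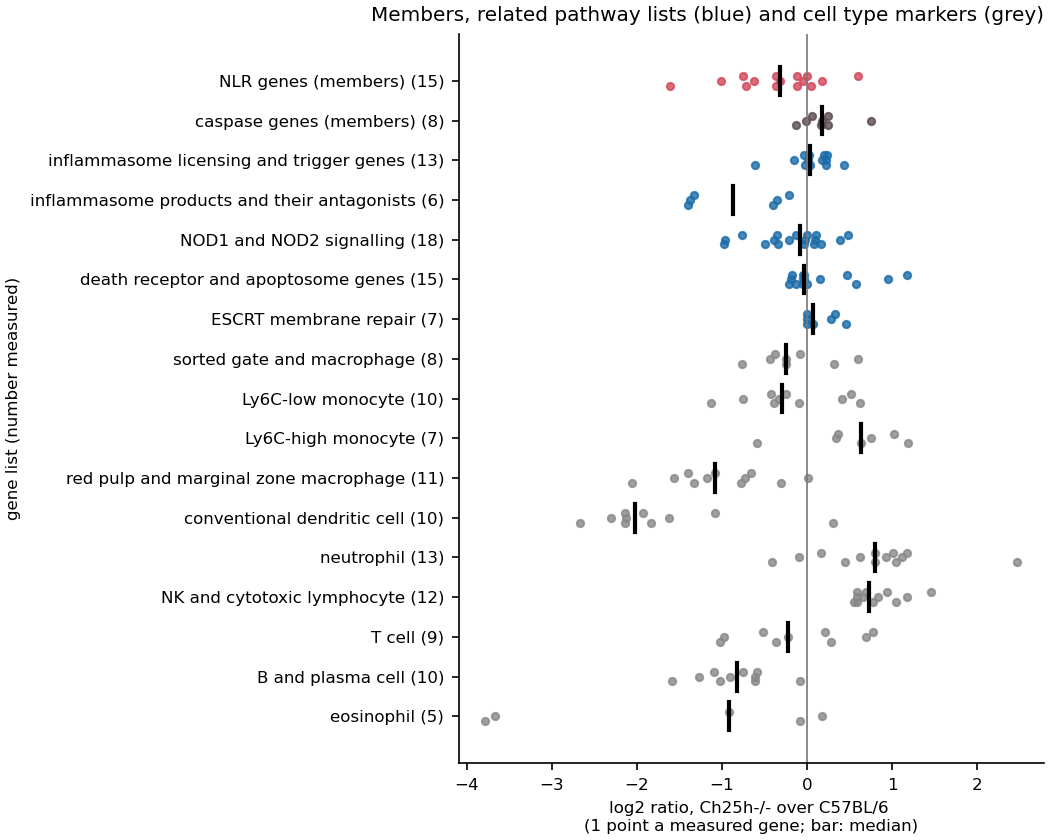
Log2 ratio of each measured gene, Ch25h-/- over C57BL/6 (x axis), by list (y axis, number measured in brackets), with the median as a bar; the member NLRs and caspases come first, then related pathways and cell type markers. Inflammasome products (median -0.87) lie lower than NLR members (-0.32), and the dendritic cell markers (-2.03) lie lowest. The NLR members include Nlrp10, measured only through its level in C57BL/6.

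NLRC5, NLRC3, NLRX1, NLRP10 and NLRP12 have mainly been linked to transcription or to the restraint of signalling. Nlrc5 had 14031 counts in C57BL/6 (820 CPM) and 12566 in Ch25h-/- (793 CPM), a log2 ratio of -0.05 (interval -0.08 to -0.01). Nlrc3 (chr16:3945007-3976632, minus strand), a restraint on STING signalling, had 1725 and 2414 counts (101 and 152 CPM). Nlrc3 was thus higher in Ch25h-/- while Nlrc5 was nearly equal. The log2 ratio of Nlrc3 was 0.60 (interval 0.51 to 0.69), which became 0.57, under 1.5-fold, with scaling by total counts. Nlrc3 is also expressed in lymphocytes, whose marker lists went both ways. The summed NK and cytotoxic lymphocyte markers given above were higher in the same library, and the summed B and plasma cell markers were lower. The part of either in the ratio of Nlrc3 was not tested. Nlrc3 counts were 0.123 of Nlrc5 counts in C57BL/6 and 0.192 in Ch25h-/-. Nlrx1, a mitochondrial NLR, had 514 and 382 counts (30.0 and 24.1 CPM; log2 ratio -0.32, interval -0.51 to -0.12), and 11.9% of its exon length overlaps an opposite-strand gene.

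Nlrp10 (chr7:108921852-108930178, minus strand), an NLR without leucine-rich repeats, had 43 counts in C57BL/6 (2.51 CPM) and 13 in Ch25h-/- (0.821 CPM). Its log2 ratio of -1.61 was the largest among the members, but its interval ran from -2.63 to -0.69, and it counted as measured only through its level in C57BL/6. Where at least 1 CPM was asked of each library, Nod2 was the only member called at 2-fold. Nlrp12 had 24 and 25 counts, with an interval of -0.70 to 1.04.

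**Figure D4:**
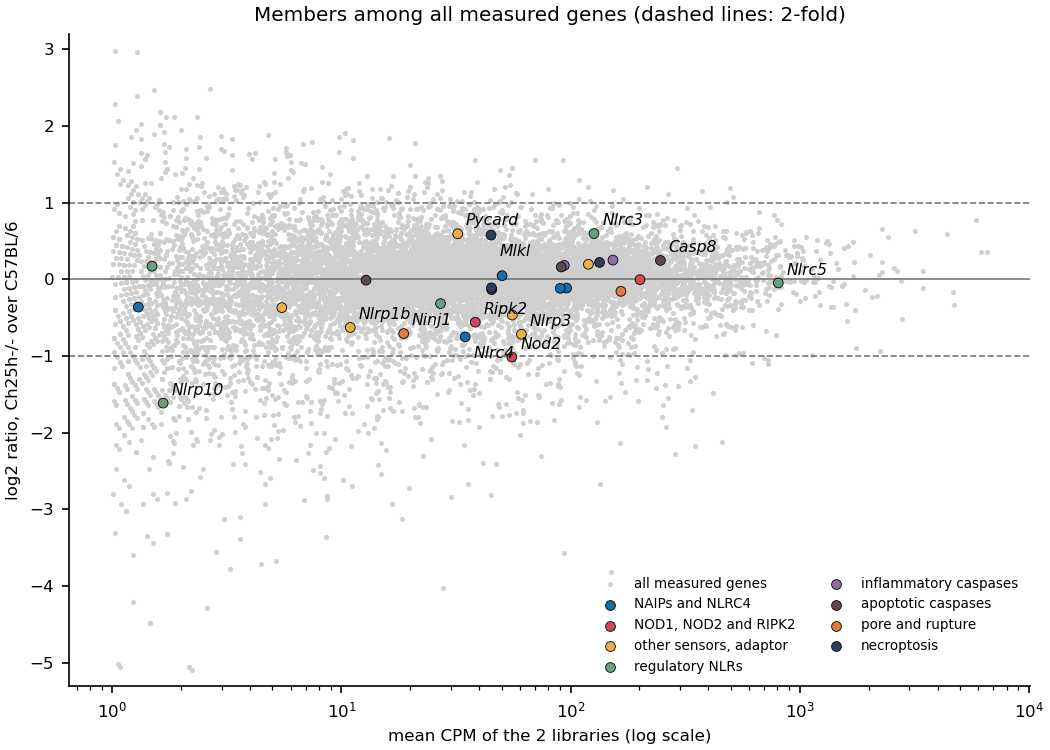
Mean CPM of both libraries (x axis, log scale) against the log2 ratio, Ch25h-/- over C57BL/6 (y axis), for all measured genes in grey and members coloured by role, with dashed lines at 2-fold. Among members above 10 CPM, only Nod2 reaches a dashed line.

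Apoptotic caspases divide into initiators, which start the cascade, and executioners, which carry it out. Of the 6 measured, 4 had ratios above 0, and the executioner Casp6 had 220 and 202 counts (12.9 and 12.8 CPM), with an interval of -0.29 to 0.27. Among the initiators, Casp8, which acts after death receptors and restrains necroptosis, had 3865 and 4243 counts (226 and 268 CPM; log2 ratio 0.25, interval 0.18 to 0.31). Casp9, the caspase of the apoptosome, had 811 and 684 counts (47.4 and 43.2 CPM), with an interval of -0.28 to 0.01. Casp2, activated by DNA damage and extra centrosomes, had 1473 and 1524 counts (86.1 and 96.2 CPM; log2 ratio 0.16, interval 0.06 to 0.26). None of these 4 reached 1.5-fold.

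Of 15 measured death receptor and apoptosome genes, 2 (13.3%, against 7.35% of all measured genes) were called higher at 1.5-fold and none lower, with a median of -0.04. Tnfrsf10b, a death receptor for TRAIL, had 36 counts in C57BL/6 and 75 in Ch25h-/- (2.10 and 4.73 CPM; log2 ratio 1.17, interval 0.58 to 1.79). Birc5, which encodes survivin and is a gene of dividing cells, was at 26.6 and 51.2 CPM (0.94). Bid, the BH3 protein that caspase-8 cleaves, was at 41.2 and 61.4 CPM (0.58), just under 1.5-fold. Most of the list, by contrast, was close to equal, including its most abundant gene Cflar, the inhibitor of caspase-8, at 508 and 449 CPM (-0.18).

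Gasdermin D forms the pore of pyroptosis, and NINJ1 then ruptures the plasma membrane. Gsdmd had 2994 counts in C57BL/6 (175 CPM) and 2486 in Ch25h-/- (157 CPM), a log2 ratio of -0.16 (interval -0.23 to -0.08). Ninj1 (chr13:49187485-49196244, plus strand) had 397 and 225 counts (23.2 and 14.2 CPM), 1.63-fold lower with a log2 ratio of -0.71 (interval -0.95 to -0.47). The transcript of the rupture protein was thus lower by more than that of the pore protein. Ninj1 counts were 0.133 of Gsdmd counts in C57BL/6 and 0.0905 in Ch25h-/-, a log2 change of -0.55 (interval -0.81 to -0.30). The other gasdermins named by symbol were at 0 counts in both libraries, apart from Gsdmc4 with 2 and 1 counts. Gasdermin E is listed under its older symbol Dfna5, outside the rule, with 24 and 31 counts and an interval of -0.34 to 1.31. The 7 genes of the ESCRT complex that repairs gasdermin pores had a median of 0.07. None of them was called at 1.5-fold, where 7.35% of all measured genes were called higher and 11.2% lower. Of these 7, Tsg101 was at 26.2 and 35.9 CPM (0.45), Vps4b at 129 and 162 CPM (0.33) and Pdcd6ip, the most abundant, at 371 and 450 CPM (0.28).

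Necroptosis runs from RIPK1 and RIPK3 to MLKL, which breaks the membrane once phosphorylated. Mlkl had 618 counts in C57BL/6 (36.1 CPM) and 853 in Ch25h-/- (53.8 CPM), a log2 ratio of 0.58 (interval 0.43 to 0.73). That was just under 1.5-fold, and it passed that fold at 0.59 with upper quartile scaling. Ripk1 had 2117 and 2282 counts (124 and 144 CPM; log2 ratio 0.22, interval 0.13 to 0.31), and 6.12% of its exon length overlaps a same-strand pseudogene. Ripk3 had 803 and 688 counts (46.9 and 43.4 CPM), with an interval of -0.26 to 0.04. The transcript of the effector was thus higher relative to that of the kinase that phosphorylates it. Mlkl counts were 0.770 of Ripk3 counts in C57BL/6 and 1.24 in Ch25h-/-, a log2 change of 0.69 (interval 0.47 to 0.90). Ripk2, by comparison, went from 0.370 to 0.216 of Ripk1 counts.

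**Figure D5:**
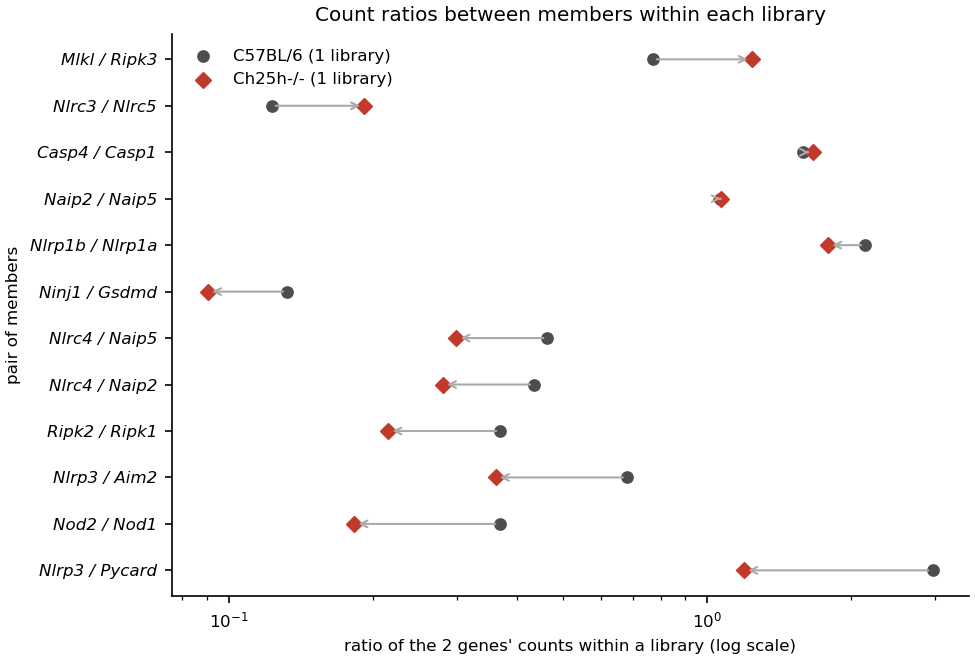
Ratio of the counts of 2 members within a library (x axis, log scale) for 12 pairs (y axis), with circles for C57BL/6, diamonds for Ch25h-/- and arrows from the first to the second. Nlrp3 over Pycard went from 2.96 to 1.19, Nod2 over Nod1 from 0.368 to 0.183 and Mlkl over Ripk3 from 0.770 to 1.24, while Naip2 over Naip5 was 1.07 in both.

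These 12 pairs were chosen after the values were seen and describe the balance between partners without any scaling between libraries.

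The 21 members at 0 counts in both libraries included Nlrp6, Casp14, Casp16 and most of the NLRP genes known from oocytes and embryos, such as Nlrp5, Nlrp14, Nlrp2 and the Nlrp4 and Nlrp9 families. The skin and gut gasdermins Gsdma, Gsdma2, Gsdma3, Gsdmc, Gsdmc2 and Gsdmc3 made up the rest. A count of 0 allows up to 0.175 CPM for C57BL/6 and up to 0.189 CPM for Ch25h-/-.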

How the data were processed

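The authors deposited raw gene counts, 1 column per genotype. Libraries were prepared from TRIzol-extracted total RNA (KAPA RNA HyperPrep), per the labels' protocols. The tools named are edgeR 3.26.8, Subread 1.5.2, featureCounts, GSNAP and FastQC 0.11.9, and the builds mm10 and GRCm38, per the submitters' processing notes. The strand setting and the handling of multi-mapping reads are not given in the sources used here.

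The deposited counts were scaled over the whole table with TMM factors (1.01 for C57BL/6 and 0.991 for Ch25h-/-; edgeR 4.0.16, R 4.3.3). Genes averaging 1 CPM or more were kept. Ratios have no prior count. Exact Clopper-Pearson intervals at 95% come from each library's share of the counts of a gene (scipy 1.17.1, numpy 2.4.6, pandas 2.3.3, Python 3.11.15). Reads carry no molecular identifiers, so intervals, shares and the floor of 3 counts cover counting error only. Genes were called at 2-fold and at 1.5-fold. The steps were tested on simulated data with counting error only. That test therefore does not cover differences between mice, sorts or library preparations.

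Positions, exon lengths and overlaps come from GENCODE M21 (GRCm38), which holds 30126 of the 30538 identifiers and all 55 members. Casp16 is a pseudogene there. Sequences come from its transcripts and from RefSeq promoters. Motifs were searched as letters. A protein comparison was planned and is not used here, and 50-base runs shared between transcripts, chosen after seeing the data, were used instead. Measured members are named, except a few that are not reported here, and of each related list the 3 genes with the largest ratio in size and the most abundant, with others named after their values were seen. Of the listed genes, 156 were matched by symbol, 2 by annotation symbol (Adgre1 and Jchain) and 1 (Irgb10) was not matched. Members and lists were chosen with earlier results of these data known.

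Other settings tried were scaling by total counts, by upper quartile and by DESeq2 1.42.0 size factors, scaling without 36 genes (S100a8, S100a9, and mitochondrial, haemoglobin and antigen receptor genes), other filters, a prior count of 2, and calls whose whole interval lies beyond the fold. Figures used matplotlib 3.10.9.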

Additional observations from a re-analysis of the deposited data

How the results depend on the processing

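Of 388 values recomputed under the alternatives, 373 stayed within a set range and 15 moved further. The range was the counting interval for a gene, and within 1.5 times for counts of genes. For a median it ran between the medians of the genes' lower and upper bounds. Many values could hardly move, since a filter leaves the ratio of a gene as it is and a scaling shifts all ratios alike. No called member changed sign. The number of members higher at 1.5-fold was 3, and was 1 with total counts and 1 where the whole interval had to lie beyond the fold. The number lower at 2-fold was 2, and was 1 with a mean of at least 5 CPM, 1 with at least 1 CPM in each library (an alternative chosen after seeing the data) and 0 with the whole interval beyond the fold. The number lower at 1.5-fold was 6, and was 2 with the whole interval beyond the fold. The median of Gsdmd and Ninj1 was -0.43, and was -0.71 with no filter beyond 1 count, which adds Gsdmc4. Scalings moved the ratio of a member by at most 0.03 and the prior count of 2 by at most 0.13. Nod1 changed sign, to 0.01, with upper quartile factors. Of all measured genes, 248 were called higher and 691 lower at 2-fold, against 120 and 347 with the filter at 5 CPM (853 lower at 1.5-fold), 435 higher with no filter beyond 1 count, and 67 and 318 with the whole interval beyond 2-fold. At 1.5-fold, 880 were called higher and 1344 lower, against 368 and 747 with the whole interval beyond that fold. Members under 5 CPM had wide intervals, so differences in Naip1 and Nlrp12 were not detectable at this depth. No paired analysis was possible because each genotype has 1 library, and for the same reason no library could be left out.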

Other observations

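Genes next to the members in function, chosen after their values were seen, also differed in part. Malt1, the paracaspase of the CARD and BCL10 complex, was at 681 CPM in C57BL/6 and 443 CPM in Ch25h-/- (log2 ratio -0.62, interval -0.66 to -0.58), while its partner Bcl10 was at 60.3 and 69.7 CPM (0.21). Card6 was at 104 and 69.2 CPM (-0.59). Ciita, the NLR family member that drives MHC class II genes and whose symbol lies outside the rule, was at 102 and 78.6 CPM (-0.37, interval -0.48 to -0.27). Card10, a scaffold protein with a CARD domain, had 61 and 86 counts (0.61, interval 0.12 to 1.10).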
